A study of Caenorhabditis elegans with 4 samples.

Results

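Of the 7714 SKN-1 binding regions that the authors listed in the genome of Caenorhabditis elegans, 1050 lay on chromosome IV outside its piRNA domains. They were chosen by position alone. A region counted as outside when its midpoint lay below 4.5 Mb, between 7 and 13.5 Mb, or above 17.2 Mb of chromosome IV on the WS180 build. These stretches are called the left, the middle and the right segment here, and they held 379, 649 and 22 regions. The other 358 regions of chromosome IV fell in the 2 domains. The authors tested 14281 candidate regions in the whole genome and listed 54.0% of them. The number of candidates in each stretch was not used here, so the 1050 cannot be set against that share.

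The regions come from 4 libraries of strain OP178, 2 of ChIP DNA and 2 of input DNA, from hermaphrodite larvae of the first stage (fed L1) grown at 20 °C. All worms had the genotype unc119(ed3) with the transgene wgIs178, made by bombardment, which carries skn-1 tagged with TY1, EGFP and FLAG together with unc119. An antibody against GFP precipitated the tagged protein, so the list reports the transgene's product and not the untagged protein, and the larvae were used whole. The deposited list combines the libraries: it gives no value per replicate, hence no spread between replicates. The listed regions hold ChIP tags in numbers of 17 to 36257 each, and the library totals were not used here.

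The transcription factor SKN-1 belongs to the CNC family and is the worm's counterpart of the mammalian NRF proteins. It specifies the gut and pharynx lineage in the early embryo, and later acts in the intestine and in ASI neurons, where it turns on detoxification and antioxidant genes. The piRNAs of the worm, also called 21U-RNAs, are small RNAs of the germline that guide the Argonaute PRG-1, and most of their genes sit in a pair of broad domains on chromosome IV, many within introns or between other genes. Worm autosomes have a central part that is rich in conserved genes and arms that hold more repeats. The edges of the domains were taken as given. Neither the piRNA genes nor other genes were placed on this build here, so no gene is named beside a region, and no sequence is shown.

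SKN-1 regions were denser outside the piRNA domains than inside them. Outside, the 1050 regions over 11.2 Mb gave 93.5 regions per Mb, whereas inside, the 358 regions over 6.2 Mb gave 57.7 per Mb. The density was 1.62-fold higher outside (95% exact interval 1.43 to 1.83). An exact binomial test against the share of length, two-sided and adjusted over 2 density comparisons, gave p = 8.36e-16. Regions lie in groups, so this p is too small and the interval too narrow. With regions less than 1 kb apart counted once, the fold was 1.52 (adjusted exact p = 1.84e-10). Grouping over longer distances is not removed in this way, so that p can also be too small. Outside regions covered 3.66% of their length and domain regions 2.46%. The 152.4 kb covered in the domains include 1 region of 33885 bp, the widest of the list. The length of chromosome IV was measured from its first to its last region.

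In part of the first domain the lowest ChIP tag count of a listed region was higher than elsewhere, and the cause was not tested. Between 5 and 6 Mb, around the widest region of the list with its 36257 ChIP tags, none of the 42 regions had under 49 ChIP tags. In the other 17 windows of 1 Mb on chromosome IV the lowest count was 18 to 23, and on the other chromosomes 17 to 36. Outside the domains, 353 regions (33.7%) had under 49 ChIP tags. When only regions with at least 49 ChIP tags were counted everywhere, the density was 61.95 per Mb outside and 38.2 inside, a fold of 1.62 (adjusted exact p = 6.89e-11). Without 5 to 6 Mb the fold was 1.54 (adjusted exact p = 7.70e-12).

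All 3 outside segments exceeded both domains in density. The left segment had 85.2 regions per Mb, the middle 99.8 and the right 77.1, against 62.8 in the first domain and 54.3 in the second. The middle segment was close to chromosome I, the densest of the other chromosomes, at 100.3 per Mb. These single stretches were not tested against each other.

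**Figure D1:**
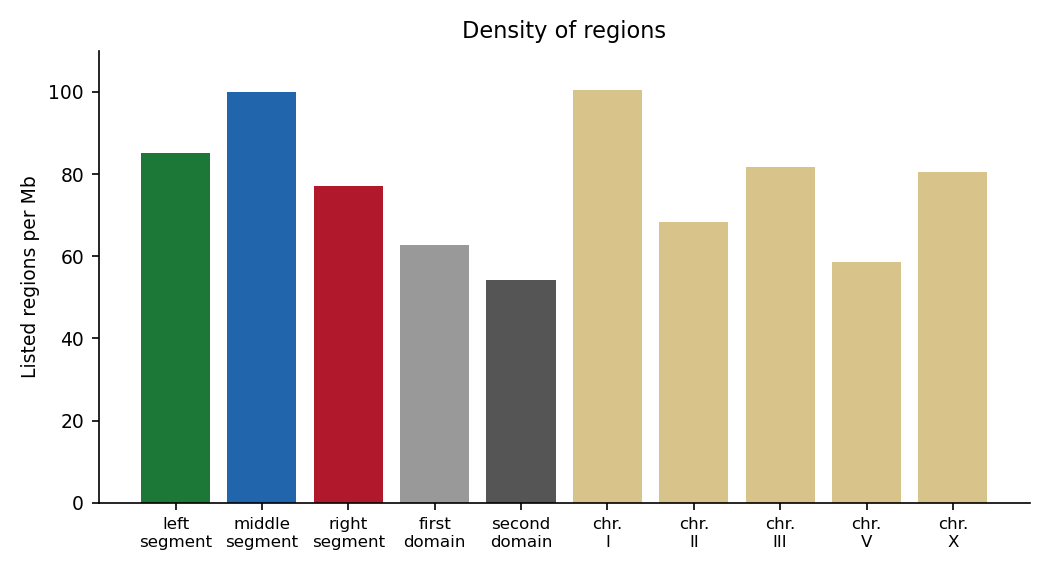
Listed regions per Mb in the outside segments of chromosome IV, in its piRNA domains (grey) and on the other chromosomes (measured from the first to the last region of each). The outside segments stand at 85.2, 99.8 and 77.1 regions per Mb, above both domains at 62.8 and 54.3; a bar is a single count with no replicate.

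Against the other 5 chromosomes the higher density depended on how input was scaled. Outside regions stood at 93.5 per Mb and the other chromosomes at 76.5 per Mb, a fold of 1.22 (95% exact interval 1.14 to 1.30). The exact binomial test gave an adjusted p of 4.30e-09. Here too regions lie in groups, so this p is too small and the interval too narrow. With regions less than 1 kb apart counted once, the fold was 1.16 (adjusted exact p = 5.99e-05), which again leaves grouping over longer distances. The input factor read from the q values was 1.32 on chromosome IV, 1.33 on I, 1.57 on X, 1.58 on V and 1.70 to 1.71 on II and III. Chromosome I, with a factor close to that of IV, had 100.3 regions per Mb, more than the outside regions. When the highest factor was used on every chromosome, the density was 64.1 per Mb outside the domains and 67.5 per Mb on the other chromosomes. The fold was then 0.949, and the adjusted exact p 0.193. That recount could only remove regions where the factor was low, and kept 68.6% of outside regions, 71.6% of domain regions and 88.3% of those on other chromosomes. The comparison with the domains shares 1 factor and moved little, to a fold of 1.56 (adjusted exact p = 8.55e-10).

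The change in density at the domain edges was not sharp everywhere. Within 1 Mb of the lower edge of the first domain there were 115 regions outside and 46 inside. Of the 46, however, 27 lay in the first 250 kb, where the outside held 32. The second 500 kb inside falls in the stretch where no region had under 49 ChIP tags. Counting only regions with at least 49 ChIP tags, there were 75 outside and 33 inside. At the upper edge of the first domain, 109 regions lay within 1 Mb outside and 79 within 1 Mb inside. At the lower edge of the second domain the counts were 87 outside and 56 inside. Beyond its upper edge only 285 kb remained up to the last region, with 22 regions, and 46 lay within 1 Mb inside. In all 4 places the density was higher outside, by 77.1 against 46 regions per Mb at the last.

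The regions nearest the edges had 27 to 94 ChIP tags. The last outside region before the first domain, at 4484622 to 4484835, had 48 ChIP tags against 8 scaled input tags, and the nearest one inside, at 4506658 to 4506917, had 53 against 23. After the first domain, the first outside region, at 7012742 to 7013170, had 94 ChIP tags against 28 scaled input tags. The nearest inside it was at 6956815 to 6956975, with 39 against 18. Before the second domain the outside region was at 13453544 to 13453863, with 70 against 22, and the nearest inside was at 13500419 to 13500609, with 37 against 11. After it, the region at 17205902 to 17205951 had 27 ChIP tags against 8, and the nearest inside, at 17120654 to 17120733, had 28 against 10. By q, these 8 regions had ranks from 1832 to 7306 in the list.

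**Figure D2:**
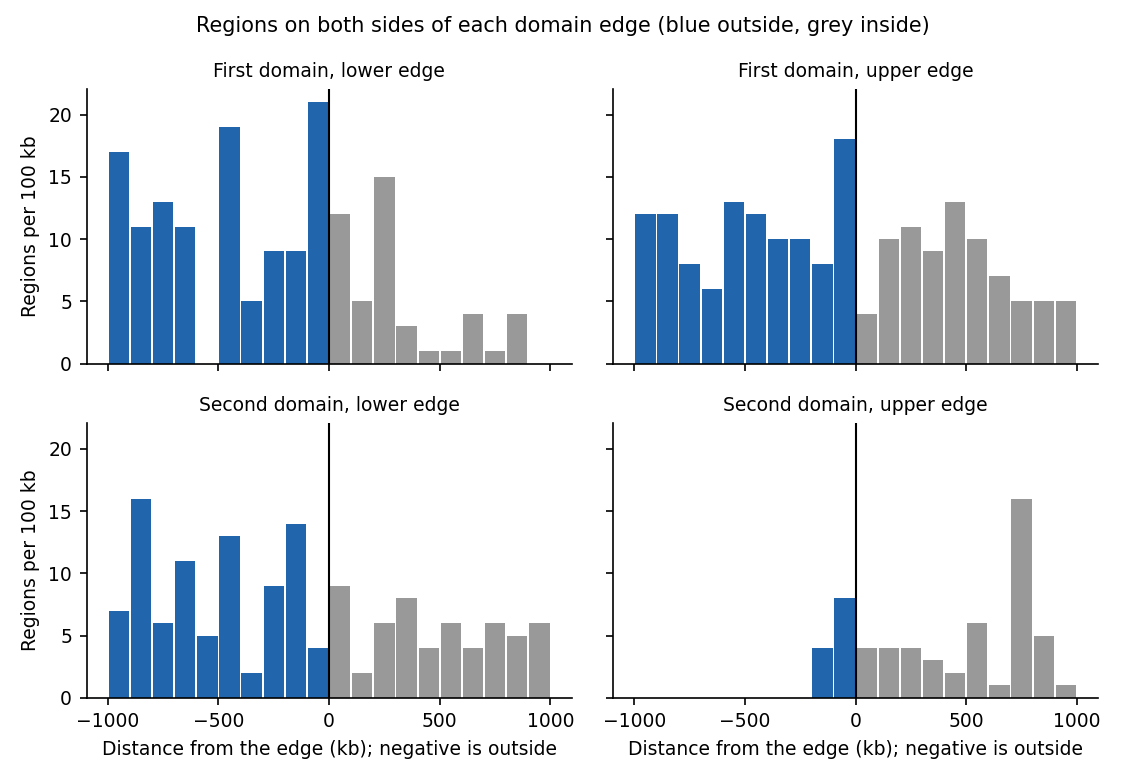
Regions per 100 kb on the outside (blue, negative distances) and the inside (grey) of each of the 4 domain edges, up to 1000 kb away. The outside counts next to the first domain reach 21 and 18 per 100 kb, and the upper edge of the second domain has only 2 full windows outside, with 8 and 4 regions.

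Counts of outside regions varied less along the middle segment than along the left. In full windows of 100 kb the middle segment had 2 to 18 regions (mean 9.98, SD 3.32 over 65 windows). The left segment had 0 to 21 (mean 8.42, SD 4.28 over 45 windows). The variance over the mean was 1.11 in the middle and 2.17 on the left. The 3 densest windows were 4400001 to 4500000 with 21 regions, 4000001 to 4100000 with 19 and 7000001 to 7100000 with 18. The first and the last of these touch the edges of the first domain. The longest stretch without a region, 3881233 to 4008550 (127 kb), ends inside the second densest window. It takes in the only window without a region. The next longest were 2497424 to 2599046 (102 kb) on the left and 10561881 to 10661920 (100.04 kb) in the middle.

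In steps of 500 kb, the left segment held 28 to 63 regions per window and the middle 40 to 64. On the left, the fewest lay at 2000001 to 2500000 and the most in the last window before the first domain, 4000001 to 4500000. In the middle segment the highest count, 64, was at 9500001 to 10000000 and the lowest, 40, at 10500001 to 11000000.

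Neighbouring regions were frequent outside the domains. For 460 outside regions (43.8%) the midpoint of another region was at most 2 kb away, against 34.9% in the domains and 34.3% on the other chromosomes. Within 1 kb the shares were 17.9%, 16.2% and 11.97%, and within 5 kb 72.9%, 61.2% and 64.3%. A higher density gives more neighbours by itself, and these shares were not tested. Chromosome I, of similar density, had 42.7% within 2 kb. The gap between neighbouring outside regions had a median of 4.81 kb (quartiles 1.44 and 13.98 kb) and a minimum of 200 bp. Inside the domains the median gap was 6.90 kb.

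When outside regions less than 1 kb apart, edge to edge, are taken as runs, 344 of them (32.8%) stood in runs of 2 or more. There were 111 pairs and 37 longer runs. The longest runs had 5 regions each, at 1451867 to 1455707 on the left and at 10502355 to 10507754 in the middle. The left run summed to 458 ChIP tags against 140 scaled input tags, a ratio of 3.27, and the middle run to 610 against 299, a ratio of 2.04. Inside the domains 24.6% of regions stood in such runs. The right segment had no run, its smallest gap being 1925 bp.

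Most outside regions were short. They were 336 bp wide at the median (quartiles 173 and 473 bp). Domain regions had a median of 303 bp and regions of other chromosomes 353 bp. Under 100 bp wide were 175 outside regions (16.7%), against 13.6% of the whole list and 17.9% of domain regions. Of the 175, 7 were a single base. At least 1000 bp wide were 62 (5.90%), against 5.67% of the list and 3.35% of domain regions. These shares were not tested.

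Enrichment was modest at most outside regions. The tags behind each q value were recovered as pairs of whole numbers, and the larger number was read as ChIP tags and the smaller as scaled input tags. A single pair was found for 1049 of the 1050. The median was 76 ChIP tags (quartiles 37 and 130) and 32 scaled input tags (12 and 52) per region. The ratio of ChIP to scaled input tags had a median of 2.66, with quartiles of 2.17 and 3.38, and ran from 1.41 to 13.5 where input before scaling held at least 1 tag. It was above 2 at 878 regions (83.7%), against 76.0% of the list, 86.8% of domain regions and 85.1% of those on chromosome I. It was above 4 at 154 (14.7%), against 11.5% of the list, 15.2% of domain regions and 14.6% of those on chromosome I. A q under 1e-10 was reached by 196 outside regions (18.7%), a share like the list's 18.6%. Together these regions held 13.6% of the listed regions and 11.2% of the ChIP tags in them.

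**Figure D3:**
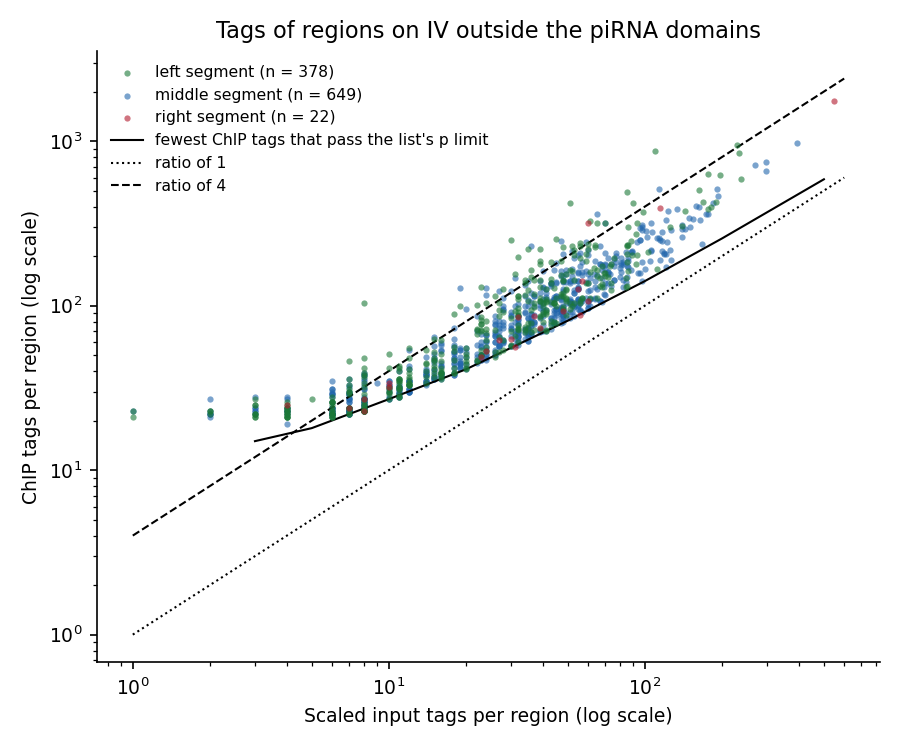
ChIP tags against scaled input tags (log axes) for the 1049 outside regions with a single tag pair, coloured by segment. The solid line is the fewest ChIP tags that pass the list's p limit, and the dotted and dashed lines are ratios of 1 and 4; regions with few input tags lie along high ratios, and the right segment's top point has 1755 ChIP tags.

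The limit of the list shapes these ratios. With 10 scaled input tags a region needs at least 27 ChIP tags to pass, a ratio of 2.7, whereas with 100 it needs 141, a ratio of 1.41. Under 100 bp, outside regions had 24 ChIP tags and a ratio of 3.67 at the median. From 250 to under 500 bp the medians were 91 tags and 2.40, and from 1000 bp on 335.5 tags and 2.48. The ratio therefore has to be compared at like width or depth. Where input before scaling came to 20 tags or more, the median ratio of the 592 outside regions was 2.32, against 2.43 at 190 domain regions and 2.14 at 3769 regions of the other chromosomes. On chromosome I, whose input factor was close to that of IV, it was 2.37 at 909 regions.

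Over all widths, the median ratio was 2.66 outside, 2.88 inside the domains and 2.44 on the other chromosomes. On chromosome I alone it was 2.69. On chromosome IV the outside median was thus 0.922 of that in the domains. The order against the other chromosomes turned with the scaling: with input tags before scaling the medians were 3.58 outside and 3.86 on the other chromosomes. Regions of a combined list are not replicates, so no test was made of any difference in ratio.

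Ratios were higher in the left segment than in the middle one. The median ratio was 2.99 in the left segment (quartiles 2.34 and 3.85, 378 regions) and 2.53 in the middle (2.11 and 3.16, 649 regions). The first domain had 2.81 and the second 2.93, so over all widths the left segment lay above both domains and the middle below both. A ratio above 4 was reached by 86 left regions (22.8%) and by 66 middle regions (10.2%). In windows of 500 kb the median ratio was 2.67 to 3.50 over the 9 left windows and 2.37 to 2.76 over the 13 middle windows. Of the left windows, 8 lay above the highest of the middle.

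The same order held at like width and like input. Regions of 250 to under 500 bp had medians of 2.66 on the left and 2.34 in the middle. From 500 to under 1000 bp the values were 2.65 and 2.27, and at 1000 bp or more 2.60 and 2.41. With 20 to 39 input tags before scaling the medians were 2.57 on the left and 2.29 in the middle, and with at least 40 tags 2.48 and 2.20. With 20 or more such tags, 27 of 193 left regions (13.99%) had a ratio above 4, as did 14 of 385 middle regions (3.64%). At this depth the share was 8.42% in the domains and 4.56% on the other chromosomes. The input factors of II, III, V and X were higher, and that of I was close to that of IV. All the values of chromosome IV share its input factor.

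Against the domains the place of the left segment varied between classes of width and depth. Under 100 bp its median was 4.14, against 3.67 in the first domain and 4 in the second. From 100 to under 250 bp it was 2.91, against 2.73 and 3.09. From 250 to under 500 bp the domains together had 2.66, like the left segment, with 2.68 in the first and 2.63 in the second. From 500 to under 1000 bp the left segment had 2.65, against 2.49 and 2.36. At 1000 bp or more it had 2.60, against 2.125 and 2.47 at only 5 and 7 domain regions. Under 10 input tags before scaling the left segment had 3.82 and each domain 3.58. With 10 to 19 input tags the median was 2.74 on the left and 2.95 in the domains. With 20 to 39 it was 2.57 on the left, against 2.53 in the first domain and 2.35 in the second. With at least 40 it was 2.48, against 2.49 and 2.38. With at least 20 tags it was 2.54 on the left, against 2.51 in the first domain and 2.36 in the second. The middle segment, at 2.22, was below both there.

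**Figure D4:**
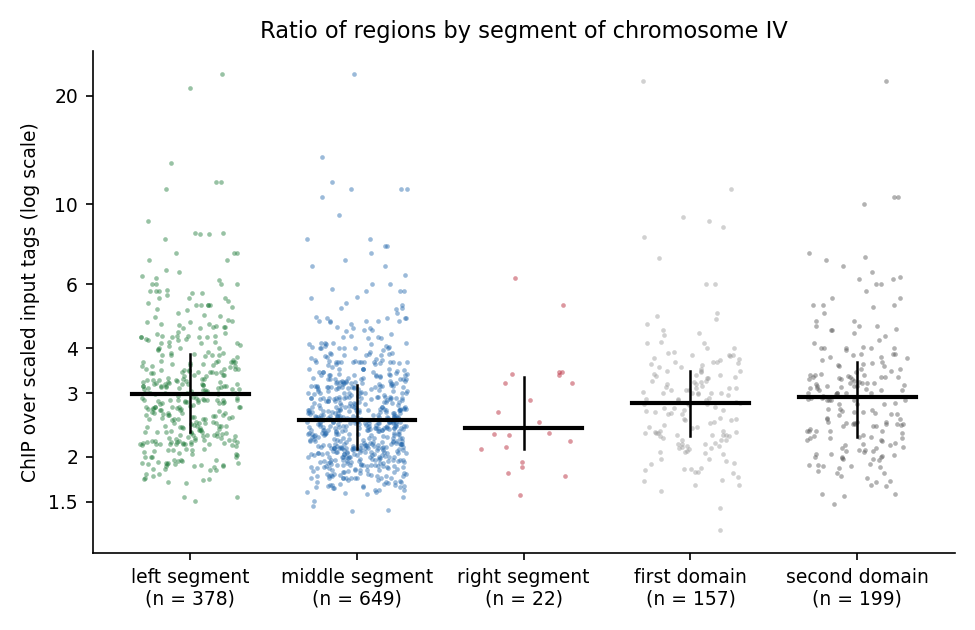
Ratio of ChIP to scaled input tags (log axis) of every region of chromosome IV with a single tag pair, by segment; thick bars are medians and thin bars the quartiles. The left segment's median is 2.99 and the middle segment's 2.53, with the domains at 2.81 and 2.93 between them, and the spreads overlap widely.

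Input depth at the regions also differed between the segments. In regions of at least 250 bp, input tags before scaling had a median of 48.96 per kb on the left and 55.0 in the middle, the width being extended by 200 bp. ChIP tags per kb had medians of 173.9 on the left and 166.8 in the middle. Left regions were thus higher in ChIP and lower in input. The part of the lower input in the higher ratio was not tested. The domains had 55.3 input tags and 180.4 ChIP tags per kb.

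**Figure D5:**
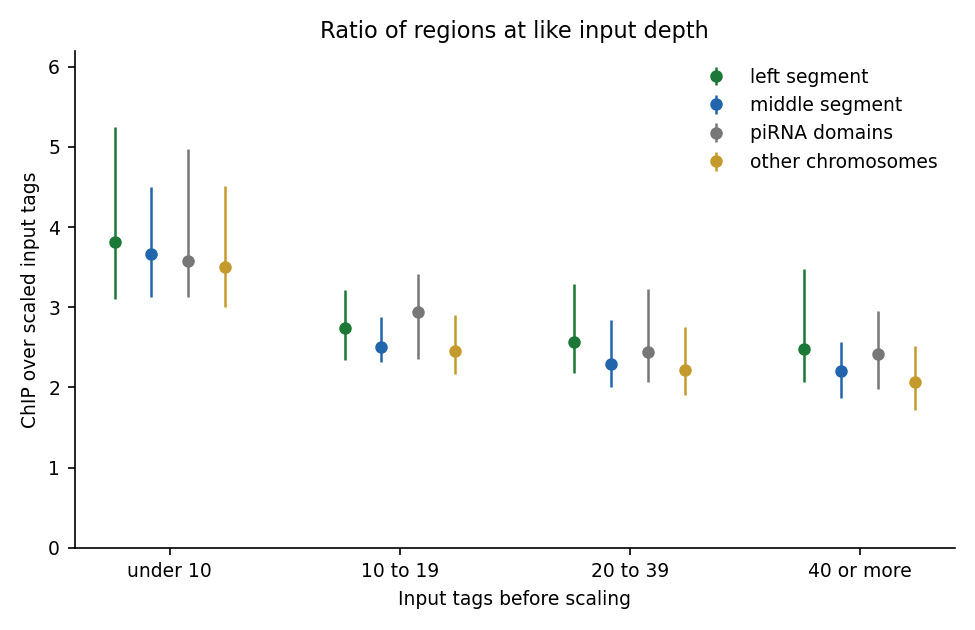
Median ratio of ChIP to scaled input tags, with quartiles as bars, in classes of input tags before scaling, for the left and the middle segment, the piRNA domains and the other chromosomes. In each class the left median is above the middle one (2.48 and 2.20 with 40 or more tags). The domains lie above the left only at 10 to 19 tags (2.95 and 2.74), and the quartiles overlap.

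The outside regions with the smallest q were mostly on the left. Of the 10, 7 were in the left segment, 2 in the middle and 1 in the right. None was among the 10 smallest of the whole list, and their ranks ran from 12 to 90. Among the 100 smallest of the list were 11 outside regions, 8 of them on the left. Of the whole list, outside regions made up 13.6% and left regions 4.91%. First came the region at 4215238 to 4216436, 1199 bp wide, with 876 ChIP tags and 109 scaled input tags, or a ratio of 8.04 (95% exact interval 6.44 to 10.3). Next was the right segment's region at 17276910 to 17281663, with 1755 ChIP tags against 547, a ratio of 3.21 (2.88 to 3.58). All these intervals cover counting error only and take the input factor as known.

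A group of 3 wide regions in the left segment had intermediate ratios. The region at 2708373 to 2711702 had 946 ChIP tags against 228 scaled input tags, a ratio of 4.15 (3.54 to 4.93). At 2601872 to 2604431 there were 849 against 232, a ratio of 3.66 (3.12 to 4.35). At 2218955 to 2220851 the counts were 634 against 177, a ratio of 3.58 (2.99 to 4.38). Their intervals overlap, so their order by ratio was not resolved. Further left, the region at 654692 to 655492 had 421 against 90, a ratio of 4.68 (3.62 to 6.15).

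In the middle segment the region with the smallest q, at 12033310 to 12034901, had 510 ChIP and 114 scaled input tags, or a ratio of 4.47 (3.57 to 5.71). The region at 10934793 to 10937268 held more ChIP tags, 976 against 394, at a ratio of 2.48 (2.18 to 2.83). That ratio was the lowest of the 10, and its interval lies below that of the first. Slightly wider, the region at 11025652 to 11028204 spanned 2553 bp with 656 against 296, a ratio of 2.22 (1.90 to 2.59). It was among the 5 widest outside regions but not among the 10 with the smallest q.

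Of the 592 outside regions with 20 or more input tags before scaling, 193 were on the left and 385 in the middle. The 10 highest ratios among the 592 were likewise mostly on the left, 8 of 10. Ratios picked in this way tend to be overestimates. The leading 3 did not differ beyond their intervals. At 1094067 to 1094570 there were 249 ChIP tags against 30 scaled input tags, a ratio of 8.30 (5.53 to 13.9). The region at 1709573 to 1710387 had 422 against 51, a ratio of 8.27 (6.02 to 12.05). The third was 4215238 to 4216436, named above with the smallest q. After them the ratio fell to 6.36 (4.30 to 9.96) at 7039433 to 7039824, with 229 against 36, which lies in the middle segment 39.4 kb from the first domain. At 3338625 to 3339113 it was 6.34 (4.30 to 10.1), and at 2725799 to 2726300, 14.1 kb past the wide region at 2708373, 6.19 (4.08 to 9.98).

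The remaining 4 of these 10 had ratios from 5.52 to 5.79. The region at 4084792 to 4086195 was also among those with the smallest q, with 492 ChIP tags against 85 scaled input tags and a ratio of 5.79 (4.48 to 7.67). The regions at 4390465 to 4390859 and 390261 to 390703 had 5.69 (3.92 to 8.85) and 5.67 (3.96 to 8.38). In the middle segment, 9315991 to 9316531 had 359 against 65, a ratio of 5.52 (4.11 to 7.64). Only 3 regions stood in both lists, and the widths in this one ran from 392 to 1404 bp.

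With fewer input tags, higher ratios appeared on thinner evidence. A region of the left segment, singled out after the values were seen, was at 2348963 to 2349273 and 311 bp wide. It had 104 ChIP tags against 8 scaled input tags, a ratio of 13 (5.83 to 36.6). At 3 outside regions, with 21 to 23 ChIP tags, the scaled input of 1 corresponds to no input tag before scaling. They were at 8359120 to 8359125, 4411083 to 4411084 and 1729493 to 1729509, and their nominal ratios, up to 23, are not read. At the other extreme, the lowest ratios were all in the middle segment. They were 1.41 (1.14 to 1.77) at 9873558 to 9874573, 1.42 (1.10 to 1.87) at 9477219 to 9477941 and 1.46 (1.10 to 1.98) at 12833811 to 12834636.

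The right segment is short and its values rest on few regions. Its widest region, at 17276910 to 17281663, is the widest outside region at 4754 bp and held 47.3% of the segment's 3713 ChIP tags. The other 21 regions had at most 394 ChIP tags each, and the best of them ranked 136 in the list. The pooled ratio of the segment, all ChIP over all scaled input tags, was 2.88 with the widest region and 2.64 without it. The pooled ratio was 2.96 on the left and 2.43 in the middle. By median, the right segment's ratio was 2.41, and no outside region there had a neighbour within 2 kb.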

How the data were processed

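ChIP and input DNA of 2 replicates were compared by the authors in 1 combined list. Per the file headers, positions are on WormBase WS180 and the caller was PeakSeq; for the aligner, the settings, the library depths and the way of combining replicates nothing is given in the sources used. The deposited list gives the authors' q values, all under 0.01.

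From these q values the number of tests, 14281, and each region's p value were solved, as q × (rank + 1) over the number of tests. The pair of whole numbers whose binomial lower tail at 0.5 equals p was then found, within 1e-09 of ln p; 7710 regions had 1 pair. The larger number was read as ChIP tags because PeakSeq tests ChIP against scaled input, as background knowledge has it. Each chromosome's input factor is the one whose rounded-up multiples best cover its scaled input tags, beyond the share of whole numbers that they take in. On IV they covered 98.1% of the tags and 75.5% of whole numbers. Dividing by the factor gave input tags before scaling. The steps were tested on simulated data. Intervals are exact (Clopper-Pearson). Densities were compared by exact binomial tests with Benjamini-Hochberg adjustment over the 2 comparisons.

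Named were the 10 regions with the smallest q, the 10 with the highest ratio on at least 20 input tags, the 5 widest, those nearest each edge and the extreme windows and gaps. The lowest and the thinly covered highest ratios, the segment contrasts, the runs and the windows of 500 kb were added after the values were seen. The regions and lists were chosen with earlier results of these data known. A planned motif count was not run, since no genome of the same build was at hand. Alternatives were stricter lists, a minimum width, moved edges, merged neighbours, other scaling and depth limits, and a minimum of ChIP tags. Python 3.11.15, NumPy 2.4.6, SciPy 1.17.1, pandas 2.3.3 and Matplotlib 3.10.9 were used.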

Additional observations from a re-analysis of the deposited data

How the results depend on the processing

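Among the 55 alternatives, 39 left the direction and the call as they were, stayed within the interval of the value or, for counts, within 1.5 times; 15 moved and 1 reversed. The density against the domains stayed between 1.45 and 1.68-fold, called in every alternative run. Against the other chromosomes it stayed between 1.10 and 1.31-fold and called, except with the highest input factor on all chromosomes (0.949, adjusted exact p = 0.193), where the recount can only remove regions of chromosomes with a lower factor. Leaving out chromosomes I, II, III or V, the recount against the domains, the minimum of 49 ChIP tags and leaving out 5 to 6 Mb were added after seeing the data. The median ratio was 2.76 and 3.09 in the best-ranked 3857 and 1928 regions of the list, 2.49 for widths of at least 100 bp, 3.58 with input before scaling, and 2.32 where input reached 20 tags. The median width was 437, 535 and 370 bp in the same stricter lists and at 100 bp or more. Ratios above 4 numbered 90, 53 and 87 there, and 42 with at least 20 input tags; fewer regions enter each. Neighbours within 2 kb were 40.6% at widths of at least 100 bp, and 17.9% within 1 kb and 72.9% within 5 kb. The cause of these shifts was not tested. No paired analysis was possible because no value of a single library is in the list, and no replicate could be left out either. Depth limits the narrow regions: those under 100 bp had 24 ChIP tags at the median.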
